A study of Rattus norvegicus with 9 samples.

Results

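The 54 miRNAs described here are the less abundant known miRNAs of rat kidney in a table of 128 miRNAs that the study's authors selected from small RNA libraries of icariin-treated and untreated rats with contrast-induced acute kidney injury (CIAKI). Of the 128 rows, 64 carry a known rat miRNA name, and the 10 most abundant of these, miR-21-5p and miR-27b-3p among them, were left out. The other 64 rows have no rat miRNA name and were not used. The authors had chosen the rows on these same libraries, so the differences between icariin and CIAKI kidneys that follow are descriptions and carry no test.

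Kidneys were taken from 3 rats per group. Rats of the icariin group received icariin, a flavonol glycoside of Epimedium plants, by gavage at 100 mg/kg on each of 3 days, and then went through the CIAKI protocol. In that protocol, which the CIAKI group had without icariin, a gastric dose of 200 mg/kg furosemide (a loop diuretic) and 6 h of dehydration preceded a tail-vein injection of 15 mL/kg iopromide, an iodinated contrast medium with 370 mg of iodine per mL. Control rats had no treatment, so no group had icariin, furosemide or dehydration alone. The labels used here state no strain, sex or age. miRNA values were used for the icariin and CIAKI libraries, and mRNA values for all 3 groups.

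A miRNA is cut from a hairpin transcript by Drosha with Dgcr8, exported by Xpo5 with Ran, cut again by Dicer1 and loaded onto an Argonaute protein. One arm of the hairpin is usually kept, and the other, the passenger arm, is degraded and gives few reads. The loaded miRNA finds messenger RNAs mainly through its seed, bases 2 to 8, and lowers their stability or translation. Several miRNAs can be cut from a common transcript, and some lie inside other genes.

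The miRNA libraries held 8401666, 8631052 and 11782757 reads in icariin kidneys, against 7847738, 5689507 and 6437898 reads in CIAKI kidneys. Levels are given as the authors' TPM, which here is the read count scaled to the library total with no length term, so that 3 reads corresponded to 0.255 to 0.357 TPM in icariin and 0.382 to 0.527 TPM in CIAKI libraries. The 54 miRNAs together made up 0.477%, 0.531% and 0.515% of all reads in icariin libraries, against 0.646%, 0.862% and 0.638% in CIAKI libraries. The share of the left-out miR-21-5p was 4.24%, 5.52% and 5.49% in icariin libraries and 12.1%, 9.48% and 9.96% in CIAKI libraries, and the part of these large shares in the scaled values of the other miRNAs was not tested. Summed levels of 7 kidney marker genes, Slc34a1 and Umod among them, were 19265 to 19697 CPM (mRNA read counts scaled to the library total) in icariin, 8341 to 11380 CPM in CIAKI and 20270 to 21056 CPM in control kidneys. Those of liver and muscle markers did not exceed 1.03 CPM in any library. The 3 adipocyte markers were higher and uneven, with 20.5, 22.1 and 15.9 CPM in icariin and 8.44, 12 and 21.7 CPM in CIAKI kidneys. Control kidneys had 53.2, 12.5 and 18.4 CPM of them, and the part of fat in the miRNA levels was not tested. All values are from whole kidney, in which fewer cells of a type and less RNA per cell cannot be told apart.

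For the miRNAs on which the account turns, the mature sequences from RefSeq (GRCr8) follow, 5′ to 3′, with the seed in capitals. The first 4 share their seeds in pairs, the next 5 are neighbours in common transcripts, and the rest are others described one by one in the account, chosen for their level, their difference, a known role in inflammation or a near-identical name.
miR-132-3p: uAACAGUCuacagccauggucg
miR-212-3p: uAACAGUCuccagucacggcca
miR-181b-5p: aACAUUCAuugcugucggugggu
miR-181d-5p: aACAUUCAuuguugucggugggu
miR-17-5p: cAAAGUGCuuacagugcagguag
miR-18a-5p: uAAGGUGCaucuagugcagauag
miR-19a-3p: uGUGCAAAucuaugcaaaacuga
miR-451-5p: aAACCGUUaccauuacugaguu
miR-144-5p: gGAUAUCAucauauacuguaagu
miR-146b-5p: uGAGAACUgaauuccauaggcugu
miR-155-5p: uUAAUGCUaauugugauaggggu
miR-21-3p: cAACAGCAgucgaugggcuguc
miR-196b-5p: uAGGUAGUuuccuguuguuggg
miR-205: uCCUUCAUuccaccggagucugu
miR-219a-1-3p: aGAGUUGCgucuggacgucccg
miR-219a-2-3p: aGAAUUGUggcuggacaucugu
miR-128-3p: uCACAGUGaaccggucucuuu
miR-142-5p: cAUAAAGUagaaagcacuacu
miR-339-5p: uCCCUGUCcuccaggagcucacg

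In all, 35 of the 54 miRNAs were lower and 19 higher in icariin than in CIAKI kidneys. The libraries of the groups did not overlap for 31 of the lower and 14 of the higher miRNAs, while this held for 71.1% of all 128 rows of the selected table (39.1% lower and 32% higher). The difference of log2(mean TPM + 1) had a median of -0.95 among the lower and 0.70 among the higher miRNAs. Without CIAKI 2 the median was -0.95 among the lower and 0.47 among the higher miRNAs. The differences nearest to 0 were -0.67 (miR-181b-5p) and 0.47 (miR-296-5p, with its 10 reads in all 6 libraries). Mean levels over the 6 libraries were under 10 TPM for 22 miRNAs, 10 to 100 TPM for 18 and at least 100 TPM for 14. The most abundant were miR-146b-5p with 893 TPM and miR-378b with 804 TPM, and the least abundant of those left out had 1149 and 1178 TPM.

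**Figure D1:**
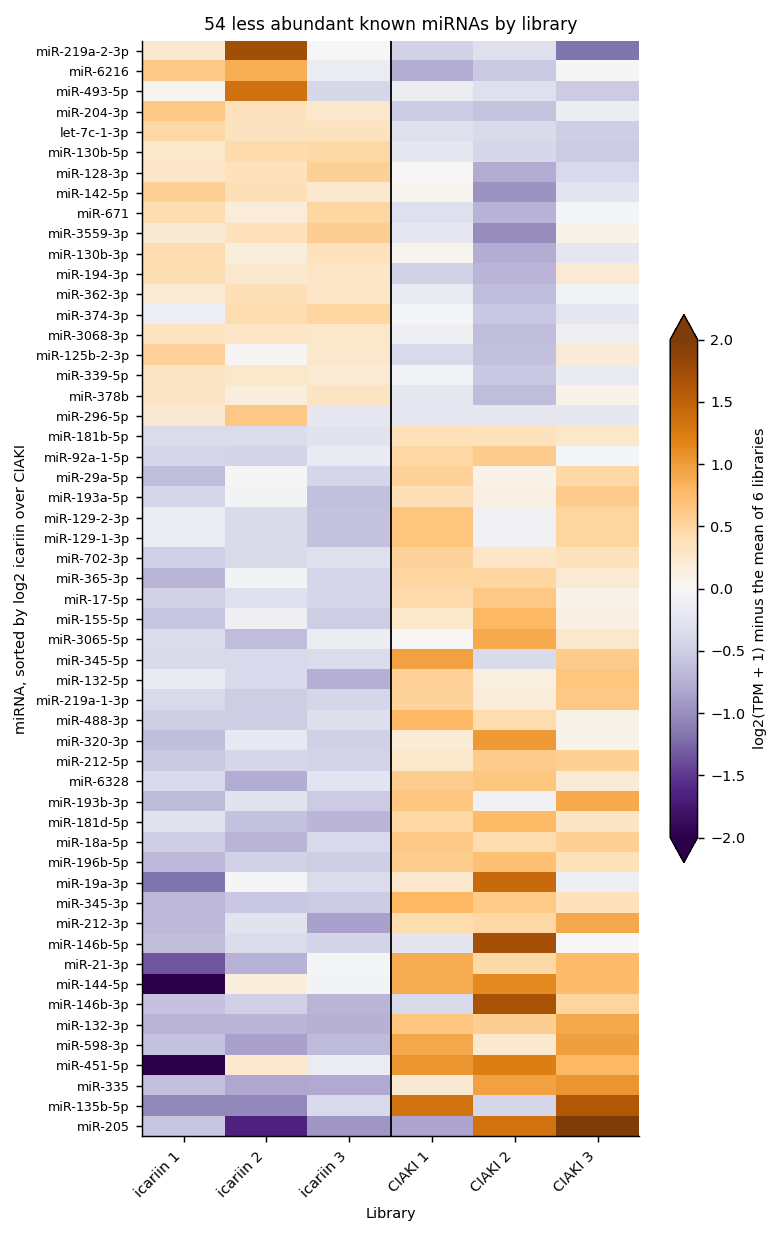
Level of each of the 54 miRNAs (rows) in the 3 icariin and 3 CIAKI libraries (columns), as log2(TPM + 1) minus the mean of the 6 libraries, with colours ending at -2 and 2. The 19 upper rows are higher and the 35 lower rows lower in icariin kidneys, and icariin 1 stands apart in the rows of miR-451-5p and miR-144-5p.

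**Figure D2:**
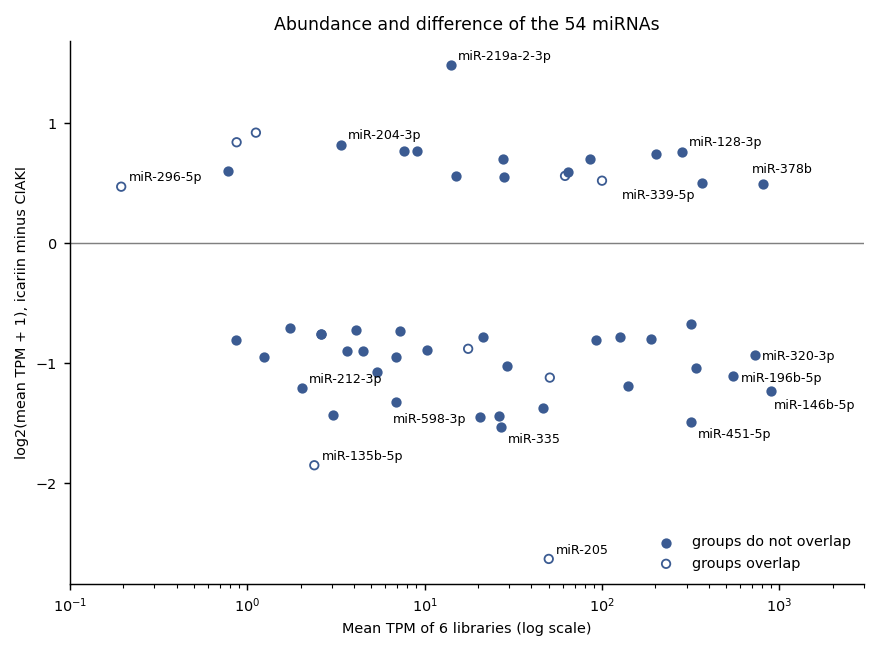
Difference of log2(mean TPM + 1), icariin minus CIAKI (vertical axis), against the mean TPM of the 6 libraries on a log scale (horizontal axis), with 1 point per miRNA. Filled points mark the 45 miRNAs whose groups do not overlap and open points the 9 whose groups overlap, among them miR-205 and miR-135b-5p.

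Both arms of the hairpins of miR-212 and miR-132 were lower in icariin kidneys. These hairpins lie together (mature forms within 342 bases, chr10:60521771-60522112, plus strand, GRCr8) and are known in mouse neurons as targets of the transcription factor CREB. miR-132-3p, the main arm, had 13.7, 13.9 and 13.4 TPM in icariin kidneys, against 37.3, 35 and 44.3 TPM in CIAKI kidneys, a log2 difference of -1.44. The icariin libraries had an SD of 0.248 TPM and all lay below every CIAKI library. miR-212-3p, with the same seed, had 0.714, 1.27 and 0.509 TPM in icariin kidneys and 2.68, 2.81 and 4.19 TPM in CIAKI kidneys (log2 difference -1.21). It differs from miR-132-3p by A10C, C14U, U17C, U20C and G22A, counted from the 5′ end with the base of miR-132-3p first. The 5p arms were lower too, and that of miR-212 had more reads than the 3p arm in all 6 libraries. miR-132-5p had 8.45, 7.07 and 5.26 TPM in icariin kidneys, against 14.4, 10.7 and 15.8 TPM in CIAKI kidneys (-0.89). miR-212-5p had 4.17, 4.52 and 4.50 TPM in icariin kidneys and 7.90, 10.4 and 9.94 TPM in CIAKI kidneys (-0.95). Neither had overlapping groups. The ratio of miR-132-3p to miR-132-5p reads was 1.62, 1.97 and 2.55 in icariin libraries and 2.59, 3.26 and 2.79 in CIAKI libraries, so that the groups did not overlap in this ratio. That of miR-212-3p to miR-212-5p was 0.171, 0.282 and 0.113 in icariin and 0.339, 0.271 and 0.422 in CIAKI libraries, and here the groups overlapped.

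The miR-17-92 transcript has 4 miRNAs among those described here, and all 4 were also lower. This transcript is known for driving proliferation, and the mature forms measured lie within 762 bases (chr15:98587861-98588622, plus strand, GRCr8). miR-17-5p, which also matches a locus on chromosome X, had 131, 147 and 134 TPM in icariin kidneys, against 247, 279 and 192 TPM in CIAKI kidneys (log2 difference -0.80). miR-18a-5p, which differs from miR-17-5p by C1U, A4G, U9A, A11C, C12U and G20A (base of miR-17-5p first) and so in its seed, had 3.21, 2.66 and 3.56 TPM in icariin kidneys and 8.28, 7.03 and 7.77 TPM in CIAKI kidneys (-1.07). In both, every icariin library was below every CIAKI library. miR-19a-3p had 18.7, 42.8 and 33.3 TPM in icariin kidneys and 52.1, 117 and 40.5 TPM in CIAKI kidneys. Its groups overlapped, and its log2 difference was -1.12, or -0.54 without CIAKI 2. The passenger arm miR-92a-1-5p averaged 1.08 ± 0.242 TPM in icariin and 2.41 ± 0.755 TPM in CIAKI kidneys (SD, n = 3 each). The level of miR-17-5p was 40.7, 55.3 and 37.5 times that of miR-18a-5p in reads of icariin libraries and 29.8, 39.7 and 24.7 times in those of CIAKI libraries.

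**Figure D3:**
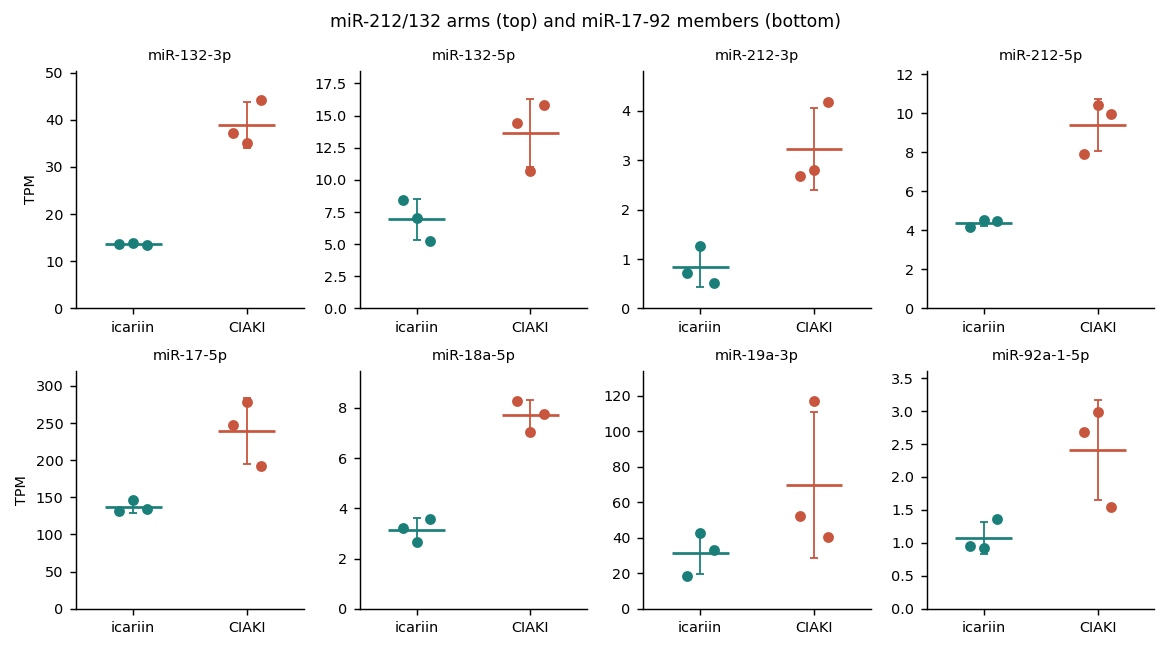
TPM of the 4 arms of miR-212 and miR-132 (top) and of the 4 miRNAs of miR-17-92 described here (bottom) in icariin (left) and CIAKI (right) kidneys, with 1 point per rat, the mean as a line and the SD as a bar. Groups overlap only for miR-19a-3p, where CIAKI 2 has 117 TPM.

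The pairs that share a seed lay in the same direction. miR-181b-5p and miR-181d-5p, which differ by C12U (base of miR-181b-5p first), belong to a family with known roles in lymphocytes. miR-181b-5p had 239, 241 and 257 TPM in icariin kidneys, against 399, 397 and 376 TPM in CIAKI kidneys, with a log2 difference of -0.67. miR-181d-5p had 260, 208 and 195 TPM in icariin kidneys and 437, 541 and 391 TPM in CIAKI kidneys (-1.04). The groups overlapped for neither. The ratio of miR-181b-5p to miR-181d-5p reads was 0.918, 1.16 and 1.32 in icariin and 0.913, 0.734 and 0.961 in CIAKI libraries. The pair miR-129-1-3p and miR-129-2-3p had the same read count in each of the 6 libraries. The first is the opening 19 bases of the second, so their reads could not be told apart, and both stood at 2.14, 1.62 and 1.27 TPM in icariin kidneys, against 4.46, 2.28 and 3.88 TPM in CIAKI kidneys.

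miRNAs known from inflammation and from blood cells did not all lie in the same direction. miR-146b-5p, which in human monocytes is induced by NF-kB signalling, had 477, 578 and 544 TPM in icariin kidneys, against 627, 2399 and 733 TPM in CIAKI kidneys. The groups did not overlap, but 1 library set the size of the difference, which was -1.23 on the log2 scale with CIAKI 2 and -0.35 without it. Its passenger arm miR-146b-3p was also highest in CIAKI 2, with 1.19, 1.39 and 1.02 TPM in icariin kidneys and 1.53, 9.49 and 3.73 TPM in CIAKI kidneys (-1.43, and -0.72 without CIAKI 2). miR-155-5p, made in activated macrophages and lymphocytes, had 59.2, 81.7 and 61.4 TPM in icariin kidneys and 107, 153 and 95.8 TPM in CIAKI kidneys (-0.81). miR-21-3p, the passenger arm of the abundant miR-21-5p, had 1.67, 3.13 and 5.69 TPM in icariin kidneys and 11.6, 8.44 and 10.7 TPM in CIAKI kidneys (-1.32). For both, the highest icariin library was below the lowest CIAKI library. miR-142-5p, a miRNA of blood-forming cells, was on the other side, with 280, 249 and 225 TPM in icariin kidneys and 196, 96.8 and 158 TPM in CIAKI kidneys (0.74).

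Leukocyte marker mRNAs in the same kidneys were low. The 5 markers summed to 25.1, 23.3 and 15.6 CPM in icariin, 17.1, 13.8 and 10.2 CPM in CIAKI and 30.7, 28.2 and 29 CPM in control kidneys, with no marker at 0 in every library. Ptprc, which encodes the pan-leukocyte surface protein CD45, had 20.1, 18.6 and 12.3 CPM in icariin kidneys, 7.80, 8.26 and 6.54 CPM in CIAKI kidneys and 25, 23.4 and 23.4 CPM in control kidneys. It was higher in icariin than in CIAKI kidneys (log2 fold change 1.06, SE 0.17, limma adjusted p = 0.0016), as was miR-142-5p and unlike miR-155-5p. It was the 1 marker called of the 3 tested (33.3%, against 39.4% of all features), and the other markers did not all lie on its side. The T cell gene Cd3e had 0.527 ± 0.159 CPM in icariin and 0.141 ± 0.101 CPM in CIAKI kidneys (SD, n = 3 each, limma adjusted p = 0.052). The macrophage marker Cd68 had 3.56 ± 0.735 CPM in icariin and 4.93 ± 1.93 CPM in CIAKI kidneys (SD, n = 3 each) and did not pass the test (limma adjusted p = 0.28). The neutrophil genes S100a8 and S100a9 were too low to be tested, with 0.113 ± 0.115 and 0.125 ± 0.116 CPM in icariin kidneys, against 0.582 ± 0.446 and 0.502 ± 0.417 CPM in CIAKI kidneys. The part of these cells in the miRNA levels was not tested.

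miR-451-5p and miR-144-5p, which are cut from a common transcript of red blood cell precursors (mature forms within 226 bases, chr10:63459409-63459634, plus strand, GRCr8), varied widely among icariin kidneys. miR-451-5p, which matures through Ago2 without Dicer1, had 24.3, 269 and 206 TPM in icariin kidneys, against 475, 534 and 396 TPM in CIAKI kidneys (log2 difference -1.49). miR-144-5p had 3.93, 39.4 and 33.8 TPM in icariin kidneys and 65.5, 78 and 59.8 TPM in CIAKI kidneys (-1.37). Icariin 1 was the low library in both, and the groups did not overlap. The ratio of miR-451-5p to miR-144-5p reads stayed within 6.09 and 6.83 in icariin and 6.62 and 7.26 in CIAKI libraries. Haemoglobin mRNAs varied in the same libraries. Hbb, which encodes beta globin, had 67.5, 416 and 397 CPM in icariin kidneys, 830, 663 and 671 CPM in CIAKI kidneys and 401, 78 and 68.6 CPM in control kidneys. Icariin 1 was again the low icariin library, and control 1 stood above the other control libraries. The 6 red-cell markers in the table summed to 412, 1595 and 1428 CPM in icariin, 2714, 2788 and 2249 CPM in CIAKI and 1585, 413 and 398 CPM in control kidneys, and none was at 0 in every library. Of these 6 genes, 1 was called lower in icariin than in CIAKI kidneys (limma, 16.7% against 39.4% of all features), namely Ahsp, the chaperone of alpha globin, at 0.646 ± 0.243 CPM in icariin and 2.37 ± 0.793 CPM in CIAKI kidneys (SD, n = 3 each, adjusted p = 0.018). Hbb did not pass (log2 fold change -1.68, SE 0.79, limma adjusted p = 0.12), nor did Slc4a1, which kidney intercalated cells also express, with 166 ± 45.6 CPM in icariin and 153 ± 36.6 CPM in CIAKI kidneys (SD, n = 3 each, log2 fold change 0.11). In CIAKI against control kidneys 4 of the 6 genes were called higher and 0 lower (66.7% against 41.3% of all features). Hbb was among them (log2 fold change 2.46, SE 0.79, limma adjusted p = 0.032). The part of blood content in the levels of miR-451-5p and miR-144-5p was not tested.

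**Figure D4:**
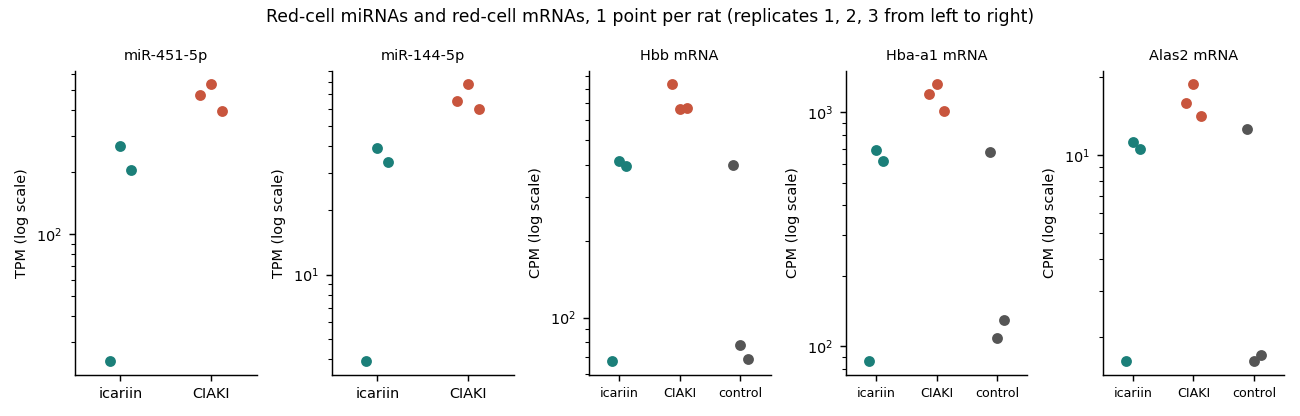
Levels of miR-451-5p and miR-144-5p (TPM) in icariin and CIAKI kidneys, and of Hbb, Hba-a1 and Alas2 mRNA (CPM) in icariin, CIAKI and control kidneys, on log scales that do not start at 0, with 1 point per rat in the order of replicates 1, 2 and 3. Icariin 1 is the lowest icariin library in each panel, with 24.3 TPM for miR-451-5p and 67.5 CPM for Hbb.

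The other abundant miRNAs among those lower in icariin kidneys were miR-320-3p and miR-196b-5p. miR-320-3p, which is known in mouse to be made without Dgcr8, had 431, 585 and 480 TPM in icariin kidneys, against 769, 1366 and 712 TPM in CIAKI kidneys (log2 difference -0.93). miR-196b-5p, which is encoded in the HoxA gene cluster, had 316, 368 and 357 TPM in icariin kidneys and 768, 830 and 658 TPM in CIAKI kidneys (-1.11). No library of either group reached the range of the other for these miRNAs.

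Several less abundant miRNAs had larger differences. miR-335, whose gene lies in the imprinted gene Mest, had 14.5, 12.6 and 12.7 TPM in icariin kidneys, against 27, 45.5 and 48.5 TPM in CIAKI kidneys (-1.53). miR-598-3p had 11.4, 9.27 and 10.9 TPM in icariin kidneys and 34.4, 21.1 and 36 TPM in CIAKI kidneys (-1.45). Neither miRNA had overlapping groups. The largest log2 difference of all, -2.63, was that of miR-205, a miRNA of epithelia that represses Zeb1 and Zeb2, but its values differed widely between CIAKI rats. It had 18.1, 7.99 and 13.7 TPM in icariin kidneys, against 14.9, 70.3 and 176 TPM in CIAKI kidneys. CIAKI 1 lay below icariin 1, and the difference was -1.61 without CIAKI 3. miR-135b-5p likewise overlapped, with 0.238, 0.232 and 0.934 TPM in icariin kidneys and 5.35, 0.879 and 6.68 TPM in CIAKI kidneys (-1.85).

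Among the 19 higher miRNAs, the median difference was smaller. miR-378b, a relative of a miRNA encoded in the gene of the metabolic coactivator PGC-1beta, had 964, 875 and 983 TPM in icariin kidneys, against 673, 497 and 834 TPM in CIAKI kidneys (log2 difference 0.49). miR-339-5p had 441, 433 and 412 TPM in icariin kidneys and 344, 242 and 320 TPM in CIAKI kidneys (0.50). Both groups were apart, with CIAKI 2 lowest in each case. miR-128-3p, made from 2 loci and best known from neurons, had 326, 341 and 392 TPM in icariin kidneys and 266, 154 and 203 TPM in CIAKI kidneys (0.76). miR-125b-2-3p, a passenger arm, had 141, 97.8 and 115 TPM in icariin kidneys and 73, 62.7 and 111 TPM in CIAKI kidneys (0.52). CIAKI 3 lay above icariin 2 for it, so that the groups overlapped. miR-3559-3p had 94.3, 103 and 121 TPM in icariin kidneys and 70.1, 39.5 and 85.4 TPM in CIAKI kidneys (0.70), with no overlap. CIAKI 2, the CIAKI library with the fewest reads, was the lowest CIAKI library for 13 of the 18 higher miRNAs that had any CIAKI reads.

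The highest log2 difference among them, 1.48, was that of miR-219a-2-3p, and 1 rat contributed much of it. It had 13.1, 39.3 and 11.1 TPM in icariin kidneys, against 7.77, 8.79 and 4.35 TPM in CIAKI kidneys. Without icariin 2 the difference was 0.72, with the groups still apart. miR-219a-1-3p, from another locus, was on the other side with 2.98, 2.66 and 2.89 TPM in icariin kidneys and 6.5, 4.92 and 7.15 TPM in CIAKI kidneys (-0.90). The sequences differ by G4A, C8U, U10G, G17A, C20U, C21G and G22U (base of miR-219a-1-3p first), so also in the seed. miR-204-3p, the passenger arm of a miRNA encoded in the channel gene Trpm3, had 5.48, 4.29 and 3.99 TPM in icariin kidneys and 1.91, 1.76 and 2.80 TPM in CIAKI kidneys (0.82). let-7c-1-3p, the passenger arm of let-7c, had 10.6, 9.62 and 9.59 TPM in icariin kidneys and 5.86, 5.45 and 4.97 TPM in CIAKI kidneys (0.77). Groups were apart in both.

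Both arms of miR-130b were higher, and both arms of miR-345 lower. miR-130b-5p had 10.6, 12.3 and 12.4 TPM in icariin kidneys, against 7.39, 6.33 and 5.75 TPM in CIAKI kidneys (0.77). miR-130b-3p was near the limit of 3 reads, with 1.31, 0.927 and 1.19 TPM in icariin kidneys and 0.765, 0 and 0.466 TPM in CIAKI kidneys (0.60). The groups of neither arm overlapped. miR-345-3p had 79.7, 87 and 89.8 TPM in icariin kidneys and 224, 199 and 165 TPM in CIAKI kidneys (-1.19). miR-345-5p had 12, 12 and 12.3 TPM in icariin kidneys and 32.2, 12.1 and 25 TPM in CIAKI kidneys (-0.88). CIAKI 2 lay within the icariin range for the 5p arm alone, and the ratio of 3p to 5p reads was 16.4 there, against 6.96 and 6.61 in the other CIAKI libraries and 6.63 to 7.30 in icariin libraries.

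The neighbours miR-193a-5p and miR-365-3p, 13957 bases apart at the outer ends of their mature forms (chr10:65170336-65184292, plus strand, GRCr8), were both lower. miR-193a-5p averaged 5.21 ± 1.26 TPM in icariin and 9.30 ± 1.74 TPM in CIAKI kidneys, and miR-365-3p averaged 92 ± 21.6 TPM in icariin and 159 ± 16.9 TPM in CIAKI kidneys (SD, n = 3 each). miR-193b-3p, a relative from another locus, averaged 18.8 ± 2.72 TPM in icariin and 39.2 ± 12.7 TPM in CIAKI kidneys. Groups were apart for all 3. The remaining lower miRNAs with at least 10 reads on average were miR-702-3p (log2 difference -0.78), miR-488-3p (-0.90) and miR-29a-5p (-0.72), the passenger arm of a miRNA known to repress collagen genes. The remaining higher ones were miR-671 (0.70), miR-194-3p (0.59), miR-362-3p (0.56), miR-374-3p (0.56) and miR-3068-3p (0.55). Of these 8, miR-374-3p alone had overlapping groups, with 55.3, 81.3 and 85 TPM in icariin kidneys and 58.1, 40.6 and 50.9 TPM in CIAKI kidneys.

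The 6 miRNAs with a mean under 10 reads give little precision. miR-296-5p had 3, 7 and 0 reads in icariin libraries and 0 reads in each CIAKI library, which is within the 3 reads that a count of 0 allows except in icariin 2. miR-3065-5p had 0.357, 0.116 and 0.594 TPM in icariin kidneys, against 0.765, 2.28 and 1.09 TPM in CIAKI kidneys (-0.81). miR-6328 averaged 0.530 ± 0.272 TPM in icariin and 1.95 ± 0.481 TPM in CIAKI kidneys (SD, n = 3 each, -0.95). miR-6216 averaged 1.78 ± 0.917 TPM in icariin and 0.470 ± 0.415 TPM in CIAKI kidneys (0.92), and its groups overlapped. miR-493-5p had 0.714, 3.24 and 0.255 TPM in icariin kidneys and 0.510, 0.352 and 0.155 TPM in CIAKI kidneys. Its difference of 0.84 came to 0.15 without icariin 2. The last of the 6 is miR-130b-3p, described above.

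The spread between libraries was larger in CIAKI than in icariin kidneys for 37 of the 53 miRNAs with reads in both groups. The median coefficient of variation was 0.16 in icariin and 0.25 in CIAKI kidneys. CIAKI libraries had fewer reads, and their scaling was less even. Library factors from median ratios over the 128 selected rows were 0.969, 0.947 and 0.984 times those of TPM in icariin libraries. In CIAKI libraries they were 1.044, 0.860 and 1.234 times those of TPM. The part of scaling and depth in the spread was not tested. Mature sequences were found in RefSeq for 49 of the 54 miRNAs, and they carried 46 different seeds, of which 3 were shared by a pair. The GC content of the 17 higher miRNAs with a sequence had a median of 45.5% (27.3% to 66.7%) and that of the 32 lower ones 47.6% (30.4% to 76.2%). The first base was U, which Argonaute proteins favour, in 4 of the 17 higher and 15 of the 32 lower miRNAs. Of the 19 higher miRNAs, 11 are 3p and 5 are 5p arms by name, while the 35 lower ones have 15 and 17. Chromosome 10, which holds 8.23% of the 693 mature miRNAs in the RefSeq table, held 11 lower and 1 higher miRNA, and 3 of its groups of neighbours (those of miR-212-3p, miR-144-5p and miR-193a-5p) account for 8 of the 11. Chromosome X, with 15.3% of the table, held 3 higher miRNAs (miR-3559-3p, miR-362-3p and miR-374-3p) and, apart from the additional locus of miR-17-5p, no lower one.

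The mRNA libraries of these groups gave a separate measurement, though the members and gene lists were chosen with earlier results of these data known. Of the 54 miRNAs, 23 lie inside another gene on the same strand, and 7 of these host genes were tested. Across 16731 features tested with limma on log2(CPM + 1), 39.4% were called at an adjusted p under 0.05 between icariin and CIAKI kidneys (19.2% higher and 20.2% lower), and 41.3% between CIAKI and control kidneys (20.8% higher and 20.5% lower). With upper-quartile scaling, which put the median log2 fold change of all features at 0.13 for icariin against CIAKI and at -0.11 for CIAKI against control, the higher share of the calls was 66.9% in place of 48.8% for icariin against CIAKI, and 34.9% in place of 50.4% for CIAKI against control. Since the CIAKI libraries enter both comparisons, opposite signs in them are not independent.

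Of the 7 host genes, 4 were lower and 1 higher in icariin than in CIAKI kidneys (71.4% against 39.4% of all features). Their median log2 fold change was -0.33, against 0.02 over all features. In CIAKI against control kidneys 4 were higher and 1 lower (71.4% against 41.3% of all features), with a median of 0.30, against 0. With upper-quartile scaling 3 were lower and 1 higher in icariin than in CIAKI kidneys, and 3 higher and 1 lower in CIAKI than in control kidneys. Mest, which encodes a hydrolase-like protein and holds miR-335, had 2.45, 3.13 and 3.27 CPM in icariin kidneys, 5.86, 10.2 and 9.88 CPM in CIAKI kidneys and 2.29, 1.65 and 1.15 CPM in control kidneys. It fell with icariin, with a log2 fold change of -1.26 (SE 0.23, limma adjusted p = 0.0029) and was higher in CIAKI than in control kidneys by 1.83 (SE 0.23, limma adjusted p = 0.00044). Its groups did not overlap in any of the comparisons, and the direction was that of miR-335. Plod3, a collagen-modifying enzyme gene that holds miR-702-3p, had 56.6, 52.2 and 52.6 CPM in icariin kidneys, 67.4, 72.5 and 63.5 CPM in CIAKI kidneys and 47.9, 42.3 and 44.5 CPM in control kidneys. It was lower with icariin, as was miR-702-3p (log2 fold change -0.33, SE 0.08, limma adjusted p = 0.0096), but not with upper-quartile scaling (adjusted p = 0.089).

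Clcn5 and Alkbh1 differed in the direction opposite to that of the miRNAs they hold. Clcn5, the chloride and proton exchanger gene of proximal tubule endosomes that holds miR-362-3p, had 90.3, 97 and 103 CPM in icariin kidneys, 136, 140 and 154 CPM in CIAKI kidneys and 118, 111 and 120 CPM in control kidneys. It fell with icariin, with a log2 fold change of -0.56 (SE 0.07, limma adjusted p = 0.00065), while miR-362-3p had 17, 19.3 and 18 TPM in icariin kidneys, against 12.9, 8.96 and 14.1 TPM in CIAKI kidneys. Icariin and CIAKI kidneys were thus apart in both, in opposite order. Alkbh1, a nucleic acid demethylase gene that holds miR-3068-3p, had 28.5, 27.6 and 27.2 CPM in icariin kidneys, 42.7, 48.1 and 35.2 CPM in CIAKI kidneys and 26, 32.6 and 27.5 CPM in control kidneys. It fell with icariin (log2 fold change -0.57, SE 0.12, limma adjusted p = 0.0063), while miR-3068-3p averaged 33.5 ± 0.624 TPM in icariin and 22.5 ± 4.75 TPM in CIAKI kidneys (SD, n = 3 each). RefSeq lists the mature sequence of miR-3068-3p under the gene name Snora58, that of a small nucleolar RNA. R3hdm1, which holds a locus of miR-128-3p, and Chpf2, which holds miR-671, did not pass, with log2 fold changes of -0.28 (SE 0.11, limma adjusted p = 0.068) and -0.22 (SE 0.18, limma adjusted p = 0.35). In CIAKI against control kidneys Plod3 (0.58), Alkbh1 (0.53) and Clcn5 (0.30) were higher, Clcn5 not with upper-quartile scaling (adjusted p = 0.16).

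Trpm3, the host of miR-204-3p, was the gene called higher with icariin. It had 4.35, 4.50 and 3.69 CPM in icariin kidneys, 3.70, 2.17 and 1.93 CPM in CIAKI kidneys and 4.49, 4.57 and 5.62 CPM in control kidneys, and its direction was that of miR-204-3p. The call was narrow (log2 fold change 0.55, SE 0.20, limma adjusted p = 0.049) and was lost under 12 of 15 alternatives, with edgeR's quasi-likelihood test among them (adjusted p = 0.058), and the lowest icariin library lay below the highest CIAKI library. In CIAKI against control kidneys Trpm3 fell (log2 fold change -0.74, SE 0.20, limma adjusted p = 0.015). Between icariin and control kidneys limma called 0 of the 7 host genes, with 3 at an unadjusted p under 0.05, and edgeR called 0. Over all features the share called there was 0.628% (0.4% higher and 0.227% lower).

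**Figure D5:**
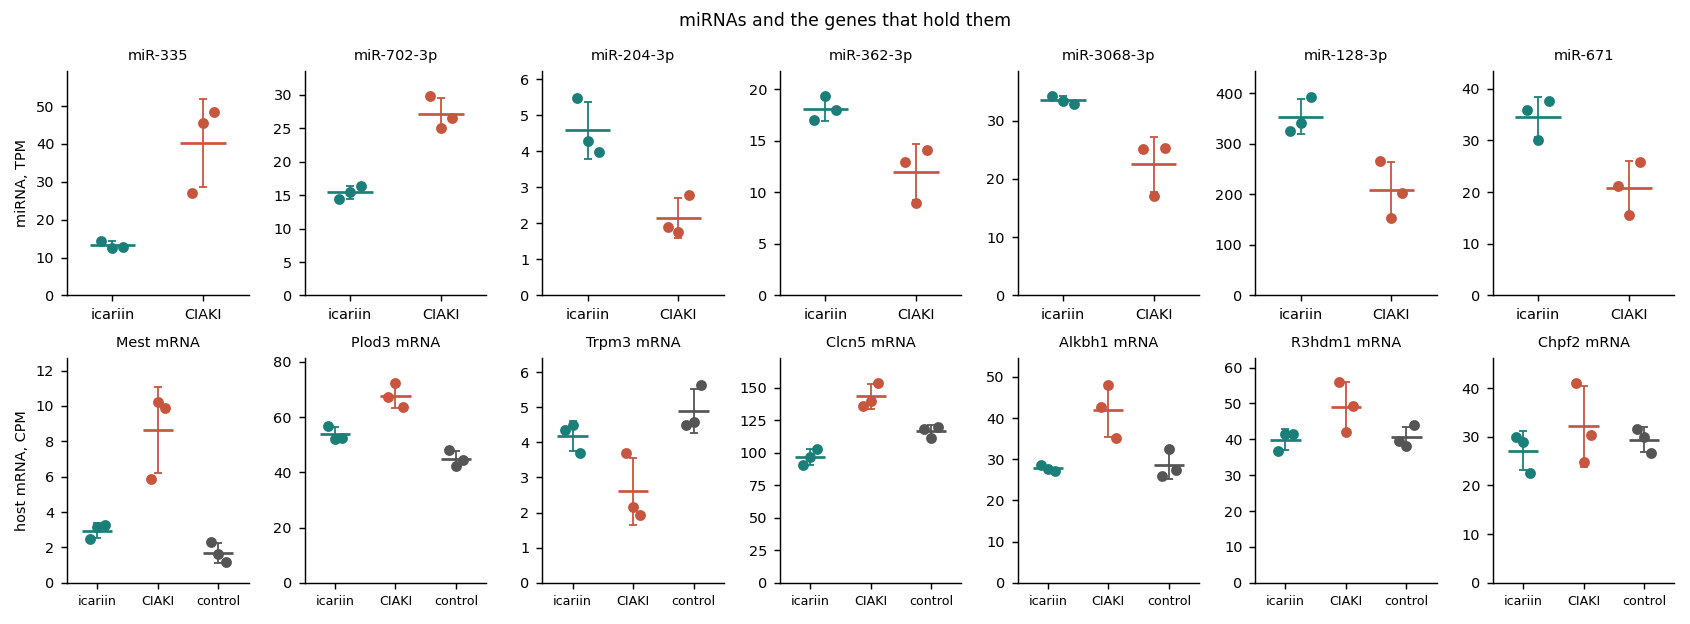
Levels of 7 miRNAs (top, TPM, icariin and CIAKI kidneys) and of the genes that hold them (bottom, CPM, icariin, CIAKI and control kidneys), with 1 point per rat, the mean as a line and the SD as a bar. miR-335 and Mest are both lower in icariin than in CIAKI kidneys, while miR-362-3p is higher and Clcn5 lower.

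Genes of the miRNA pathway itself changed in part. Of 33 listed genes 29 were tested, and 9 were lower and 1 higher in icariin than in CIAKI kidneys, which is 34.5% called against 39.4% of all features, but with upper-quartile scaling 3 were lower and 7 higher. The median log2 fold change of the list was -0.04. Leaving out single libraries took the 10 calls to as few as 4 (without CIAKI 1), with 5 without icariin 2 or icariin 3 and 6 without icariin 1 or CIAKI 2. Ran, the GTPase that drives nuclear export and import, had 98.5, 102 and 95.8 CPM in icariin kidneys, 244, 185 and 173 CPM in CIAKI kidneys and 99.9, 107 and 95 CPM in control kidneys (icariin against CIAKI: log2 fold change -1, SE 0.12, limma adjusted p = 0.00037). Ago2, the Argonaute protein with slicing activity, had 45.6, 48.3 and 43 CPM in icariin kidneys, 67.4, 85.4 and 59.9 CPM in CIAKI kidneys and 47.1, 46.8 and 53.6 CPM in control kidneys (-0.61, SE 0.12, limma adjusted p = 0.0045). In both genes every CIAKI library stood above all other libraries.

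The other pathway genes that fell with icariin were Pan3 (-0.40) and Cnot7 (-0.22) of the deadenylation complexes, Dgcr8 (-0.31), the export receptor Xpo5 (-0.31), Ago4 (-0.48), the Argonaute partner Tnrc6a (-0.26) and the uridylating enzyme Tut7 (-0.27). With upper-quartile scaling the calls of Dgcr8, Xpo5, Ago4, Tnrc6a, Tut7 and Cnot7 were lost. Prkra, a partner of Dicer1, rose by 0.30 (SE 0.08, limma adjusted p = 0.02). Drosha and Dicer1, which cut the hairpin, were not called. Drosha had 58.6 ± 5.68 CPM in icariin, 60.1 ± 4.02 CPM in CIAKI and 59.4 ± 4.18 CPM in control kidneys, and Dicer1 had 93.4 ± 4.71 CPM in icariin, 90.6 ± 2.67 CPM in CIAKI and 101 ± 2.67 CPM in control kidneys (SD, n = 3 each). Dicer1 was called with upper-quartile scaling, higher in icariin than in CIAKI kidneys by 0.18 (adjusted p = 0.034). Between CIAKI and control kidneys Dicer1 was not called (-0.16, limma adjusted p = 0.062), but it was lower in CIAKI kidneys under some alternatives. These were edgeR (edgeR adjusted p = 0.025), quantile normalization (-0.23, limma adjusted p = 0.0071) and upper-quartile scaling (-0.29, limma adjusted p = 0.004). In CIAKI against control kidneys, 7 of the 29 genes were higher and 1 lower (27.6% against 41.3% of all features), namely Ran (0.97), Ago2 (0.51), Xpo5 (0.37), Pan3 (0.36), Dgcr8 (0.28), Adarb1 (0.26), which encodes an RNA-editing enzyme, and Cnot7 (0.23) as against Prkra (-0.36), and with upper-quartile scaling 4 were higher and 6 lower. Without control 1 or control 3 the count was 5. Between icariin and control kidneys limma called 0 of 29, with 1 at an unadjusted p under 0.05, and edgeR called 0.

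Known targets were listed for 8 families with a member among the 54 miRNAs, and 17 of the 19 genes were tested. In icariin against CIAKI kidneys 6 were lower and 1 higher (41.2% against 39.4% of all features, median log2 fold change 0.03), and with upper-quartile scaling 2 were lower and 4 higher. Cdkn1a, the cell cycle inhibitor p21 and a target of miR-17-5p, had 2.76, 2.73 and 5.98 CPM in icariin kidneys, 30.9, 58.9 and 16.1 CPM in CIAKI kidneys and 3.63, 3.70 and 4.41 CPM in control kidneys. It fell with icariin (log2 fold change -2.79, SE 0.41, limma adjusted p = 0.001), so that both Cdkn1a and miR-17-5p were lower in icariin kidneys. Inpp5d, which encodes the phosphatase SHIP1 and is a target of miR-155-5p, had 15.8, 14.8 and 13.5 CPM in icariin kidneys, 8.35, 10 and 9.06 CPM in CIAKI kidneys and 16.3, 14.4 and 15.1 CPM in control kidneys. It was the target called higher with icariin (0.63, SE 0.11, limma adjusted p = 0.0023), opposite to miR-155-5p and in the direction of the leukocyte gene Ptprc given above. Inpp5d is itself expressed mainly in blood cells, and the part of their number in its level was not tested.

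Other targets that fell with icariin, in the direction of their miRNAs, included the signalling genes Irak1 (-0.21) and Traf6 (-0.26) for miR-146b-5p, and Ywhaz (-0.35) and Cab39 (-0.23) for miR-451-5p. With upper-quartile scaling the calls of Irak1, Traf6 and Cab39 were lost. The targets of miR-205, Zeb1 and Zeb2, did not pass, with log2 fold changes of 0.03 (limma adjusted p = 0.86) and 0.09 (limma adjusted p = 0.55), and neither did the miR-132-3p target Arhgap32 (0.07) or the miR-181 targets Tcf4 (0.16) and Nlk (-0.08). Socs1 (0.11), Bcl2l11 (0.25), Crat (0.22) and Med13 (-0.21) also did not pass. In CIAKI against control kidneys 5 of the 17 targets were higher, Cdkn1a (2.71), Ywhaz (0.28), Traf6 (0.25) and Cab39 (0.25) among them, and Inpp5d (-0.68) and Zeb2 (-0.48) were lower. This is 41.2% against 41.3% of all features, and with upper-quartile scaling 1 was higher and 4 lower. Between icariin and control kidneys limma called 0 of 17, with 2 at an unadjusted p under 0.05, and edgeR called 0.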

How the data were processed

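Kidney RNA of 9 rats, 3 per group and separate animals by the series design, was analysed from the deposited tables, so that the spread is that between rats. Bowtie 0.12.2 and the mouse build mm8 are named per the submitters' processing notes, though the identifiers are rat genes. For the other steps, the strand setting and shared reads, the sources used here give nothing. The miRNA table holds read counts and TPM per the file headers, and the deposited TPM equal the count times a constant per library. Control miRNA values were not used here. The gene table was deposited by the authors in CPM. Its values gave whole reads for 100% of entries (within 0.1 of a whole number), with 1 CPM worth 64.4 to 90.4 reads, and these equalled all 23850 mRNA counts that the authors deposited for selected genes.

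Members were described by log2(mean TPM + 1) with no test. The 16731 of 36267 features that reached 1 CPM in 3 or more libraries were tested with limma 3.58.1 (trend, two-sided) on log2(CPM + 1), which understates fold changes of low genes, in 1 fit over all 9 libraries, with Benjamini-Hochberg adjustment and calls under 0.05. edgeR 4.0.16 on the recovered reads called 6745 genes for icariin against CIAKI, 7028 for CIAKI against control and 76 for icariin against control. The test was checked on simulated data in which a small share of the features was changed, in the icariin group only. This check cannot show how the test behaves where as large a share is called as here. The alternatives were other pseudocounts, filters and scalings, a replicate block, edgeR, and leaving out each library.

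The members and gene lists were chosen with earlier results of these data known. Full values are given for the 6 most abundant miRNAs per direction, the 6 with the largest difference per direction among those with at least 10 reads, those sharing a seed or precursor and the 3 least abundant. Other miRNAs given in full were chosen after their values were seen. Genes named are all tested hosts, the called pathway genes with 5 core ones, and up to 3 targets per family, of which some are not reported here. Host genes were taken from RefSeq (GRCr8) gene spans by strand, and that of miR-335 from a list of known hosts. Haemoglobin genes have near-identical copies, so their levels are uncertain.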

Additional observations from a re-analysis of the deposited data

How the results depend on the processing

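No miRNA changed direction under the 9 alternatives that recomputed all 54 values (a further one only left out the 6 miRNAs under 10 reads). The authors had chosen the rows on these same libraries, so a stable direction was largely given in advance and is no support. The count with groups apart was 43 with median-ratio scaling, whose factors came from the same 128 selected rows. It was 47 to 50 with single libraries left out, where smaller groups overlap less easily. The log2 difference of miR-181b-5p was -0.59 with median-ratio scaling. Between icariin and control kidneys, 105 genes were called, against 52 with no filter and 30 to 130 with single libraries left out. The count of pathway genes called was 4 to 9 in icariin against CIAKI kidneys and 5 to 8 in CIAKI against control kidneys with single libraries left out. Replicate numbers do not pair the samples: deviations of same-numbered libraries correlated at -0.03 to 0.08. With the replicate block, 6314 genes were called for icariin against CIAKI, 6678 for CIAKI against control and 73 for icariin against control, against 6592, 6903 and 105 without it. With the block, 4 of the 7 host genes, 8 of 29 pathway genes and 7 of 17 targets were called in icariin against CIAKI kidneys, and among the targets Irak1 was no longer called (adjusted p = 0.08) while Crat was (adjusted p = 0.038). Each named gene was looked at in each comparison under each alternative, so that the same gene can count many times. Counted in this way, 107 results lost their call, 24 gained one and 1534 stayed the same. None changed sign where either fit had a call. Changes of sign without a call in either fit count among the 1534. So do all results of icariin against control kidneys, where none of the named genes was called and no call could be lost. The causes were not tested. With 3 rats a group and at most 11782757 miRNA reads, the miRNAs under 10 reads are the least certain.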
